A study of Homo sapiens with 3 samples.

Results

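The B7 family ligands and the membrane proteins that stabilise PD-L1 were followed as RNA in DU145 prostate cancer cells. The rows named CD274, PDCD1LG2, CD276, VTCN1, CD80, CD86, HHLA2, CMTM6 and CMTM4 were taken by gene name from each deposited table of counts. These are 9 of the 58735 genes listed, 7 of them ligands and 2 of them stabilisers. Of the 9 genes, 8 were counted in some library and 5 reached the sum of 10 counts that was required for testing.

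The study asked what a knockdown of PD-L1 does inside castration-resistant prostate cancer cells. DU145 is an established line from a metastasis of a human prostate carcinoma. The control was 1 library. The study's methods give the lentiviral vector pLKO.1 without a hairpin as the control of its knockdown lines, but their RNA-seq part names the control cells only as DU145. The other 2 libraries, labelled Knockdown1 and Knockdown2, came from cells given short hairpin RNAs against PD-L1 in pLKO.1. The knockdown cells were selected with puromycin and kept as stable lines. Whether the sequenced control carried the vector or was selected is not stated. The study's methods give the sequence of 1 hairpin. Their RNA-seq part names the knockdown cells PD-L1sh1/2, which reads as 2 hairpins. The labels themselves do not say whether Knockdown1 and Knockdown2 differ in hairpin or are cultures of the same one.

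B7 ligands are surface proteins of the immunoglobulin superfamily that meet receptors on T cells and raise or dampen their response. PD-L1 on a tumour cell binds PD-1 and holds the T cell back, and its amount at the surface is set both by transcription, which interferon gamma drives, and by how long the protein escapes lysosomal and proteasomal breakdown. CMTM6 binds PD-L1 at the membrane and in recycling endosomes and keeps it from the lysosome, and its close relative CMTM4 can do the same. These are RNA data and hold no measure of the PD-L1 protein.

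The libraries held between 14733088 and 15786457 counts, so the limit that a count of 0 allows, 3 counts, lay between 0.190 and 0.204 CPM, the count scaled to library size. Some annotations of the series go against each other: in the control's table the counts stand under a heading with the name of another gene, RBM45, the series text names the thyroid line BCPAP, and PD-L1 RNA did not follow the labels as described next. The libraries are therefore called by their labels. Where 3 values of a gene are given together, they follow the order control, Knockdown1, Knockdown2. Epithelial markers were abundant, with KRT8 at 16068, 17914 and 19056 counts. The 10 immune cell markers summed to 26, 16 and 17 counts, with CD3E, CD3D, MS4A1 and NKG7 at 0 everywhere, and the 5 thyroid markers to 29, 40 and 54 counts. The markers KLK3, KLK2 and TMPRSS2 of luminal prostate cells were at 0 in each library.

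CD274 (ENSG00000120217) encodes PD-L1, the target of the hairpins (chromosome 9 of the build GRCh38, 5450503 to 5470566, plus strand). It had 204 counts in the control library, 213 in the library labelled Knockdown1 and 224 in the library labelled Knockdown2. Divided by the listed gene length and the library size, its level was 3.34, 3.51 and 3.45 FPKM, a level per kilobase of gene that can be compared between genes. The 3 values lay close together, and neither library labelled as a knockdown was below the control. The paper reports that its stable knockdown lines, DU145 among them, were checked by western blot, a measure of protein that these counts do not hold. Divided by the control, Knockdown1 came to 1.05 (exact 95% counting interval 0.861 to 1.28) and Knockdown2 to 1.03 (0.845 to 1.25). Counting error alone thus left room for a level no lower than 0.845 of the control. Fitted over both libraries, the log2 fold change was 0.05 ± 0.20 (SE, edgeR quasi-likelihood test, Benjamini-Hochberg adjusted p = 0.947), and its 95% interval as a fold ran from 0.787 to 1.37.

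Among the ligands, CD276, which encodes B7-H3, carried most of the RNA. CD276 (ENSG00000103855; chromosome 15, 73683966 to 73714518, plus strand) had 1071, 1164 and 1309 counts, or 13.0, 14.2 and 14.9 FPKM. Per listed length it made up 78.8%, 79.9% and 80.5% of the summed RNA of the 7 ligands, and CD274 made up 20.3%, 19.7% and 18.6%. The remaining 5 ligands together supplied less than 1% in each library. CD276 was 3.89 times as high as CD274 per length in the control library (95% counting interval 3.35 to 4.54), 4.05 times as high in Knockdown1 (3.50 to 4.71) and 4.33 times in Knockdown2 (3.76 to 5.01). In bulk RNA, fewer cells that express a gene and less RNA per cell cannot be told apart.

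PDCD1LG2 encodes PD-L2, the second ligand of PD-1, and its gene (ENSG00000197646) begins 40.0 kb beyond the end of CD274 on the same strand, from 5510570 to 5571254. It had 4, 2 and 6 counts, or 0.114, 0.0572 and 0.161 FPKM. Per length, CD274 stood at 29.4 times PDCD1LG2 in the control (95% counting interval 11.3 to 109), 61.3 times in Knockdown1 (16.8 to 510) and 21.5 times in Knockdown2 (9.72 to 59.2). The intervals overlap widely, and all of them place the neighbouring gene well under CD274. The log2 fold change of PDCD1LG2 was -0.05 ± 1.25 (SE, edgeR adjusted p = 0.990), with a 95% interval as a fold of 0.176 to 5.28, so a change was not detectable at this depth.

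The other 4 ligands were at or under the limit of 3 counts in each library. CD80 (ENSG00000121594; chromosome 3, 119524293 to 119559602, minus strand) and CD86 (ENSG00000114013; chromosome 3, 122055366 to 122121139, plus strand) are the ligands of CD28 and CTLA-4 on antigen-presenting cells. CD80 had 1 count in the control library and 0 in the others, and CD86 had 0 in all libraries. That single CD80 count is uncertain, because CD80 overlaps exons of TIMMDC1 on the opposite strand and 24.0% of its 31-base words occur in that gene, while the use of strand in the counting is not stated. VTCN1, which encodes B7-H4 (ENSG00000134258; chromosome 1, 117143587 to 117210960, minus strand), had 1 count in the library labelled Knockdown2 and 0 in the others. HHLA2, a ligand of TMIGD2 (ENSG00000114455; chromosome 3, 108296490 to 108378285, plus strand), had 1 count in the control library and 0 in the others. Set against 3 counts of CD86 per library, CD274 was at least 56.8-fold higher per length in the control library, at least 59.3-fold in the library labelled Knockdown1 and at least 62.4-fold in the library labelled Knockdown2. For CD276 the same bounds were 221-fold, 240-fold and 270-fold.

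**Figure D1:**
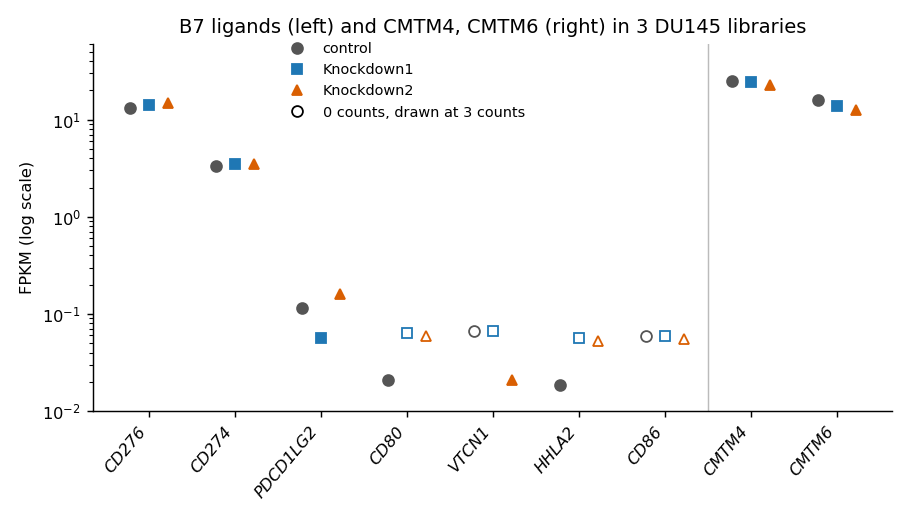
Level of the 7 B7 ligands and the 2 stabilisers in FPKM on a log axis, with 1 symbol per library and no error bars. Open symbols stand for 0 counts and are drawn at the level of 3 counts, so a filled symbol of 1 count can lie under them. CMTM4, CMTM6, CD276 and CD274 form tight triplets between 3.34 and 24.8 FPKM, and the other ligands lie under 0.2 FPKM.

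The stabilisers were both more abundant than their client. CMTM4 (ENSG00000183723; chromosome 16, 66614750 to 66696707, minus strand) had 2984, 2942 and 2925 counts, or 24.8, 24.5 and 22.8 FPKM. CMTM6 (ENSG00000091317; chromosome 3, 32481312 to 32503408, minus strand) had 1033, 894 and 872 counts, or 15.8, 13.7 and 12.5 FPKM. CMTM6 was highest in the control library and lowest in the library labelled Knockdown2, whereas CMTM4 was nearly level between the control and the library labelled Knockdown1. CMTM6 overlaps exons of CMTM7 on the opposite strand, with 6.76% of its 31-base words shared, so some reads there may belong to either gene. CMTM7 itself had 179, 179 and 177 counts.

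The levels of the 4 abundant members were ranked within each library per length. In the control library the order was CMTM4, CMTM6, CD276, CD274. CMTM4 was 1.57, 1.79 and 1.82 times as high as CMTM6. CMTM6 was 1.21 times as high as CD276 in the control library (95% counting interval 1.11 to 1.32). In Knockdown1 the 2 genes did not differ beyond counting error, at 0.965 times (0.883 to 1.05), and in the library labelled Knockdown2 CMTM6 was under CD276, at 0.837 times (0.767 to 0.912). Per length, the order of CMTM6 and CD276 therefore turned between the control library and the library labelled Knockdown2. CMTM4 kept the top place and CD274 the fourth. Without division by length, CMTM6 was not above CD276 in any library. The ratios of counts were 0.965 (95% counting interval 0.885 to 1.05), 0.768 (0.703 to 0.839) and 0.666 (0.611 to 0.726). Among protein-coding genes, CD274 stood above 58.3% to 59.0% of the genes of its library, CD276 above 82.4% to 84.3%, CMTM6 above 81.4% to 85.6% and CMTM4 above 90.3% to 91.6%.

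Relative to the control library, CMTM6 stood at 0.869 in Knockdown1 (95% counting interval 0.794 to 0.952) and at 0.788 in Knockdown2 (0.720 to 0.864). CD276 stood at 1.09 (1.00 to 1.19, the lower bound just above 1) and 1.14 (1.05 to 1.24), and CMTM4 at 0.990 (0.941 to 1.04) and 0.916 (0.870 to 0.964). The intervals of CMTM6 and CD276 left out 1 in both libraries and that of CMTM4 in the library labelled Knockdown2, where CMTM4 was also lower than in the library labelled Knockdown1, at 0.925 times (0.878 to 0.973).

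These intervals cover counting error only and compare pairs of libraries, not conditions. In the library labelled Knockdown1 they left out 1 for 2 of the 5 tested members, against 29% of the 19849 genes tested, and with library totals in place of sizes scaled by TMM (a trimmed mean of gene ratios) the CD276 interval took in 1 there. In the library labelled Knockdown2 they did so for 3 of 5, against 38.2%. Among genes averaging 200 counts or more, where the 4 abundant members belong, the same shares were 2 of 4 members against 43.6% and 3 of 4 against 60.4%. Differences of this size were thus common over the whole table, and the members' counts stayed near the background.

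**Figure D2:**
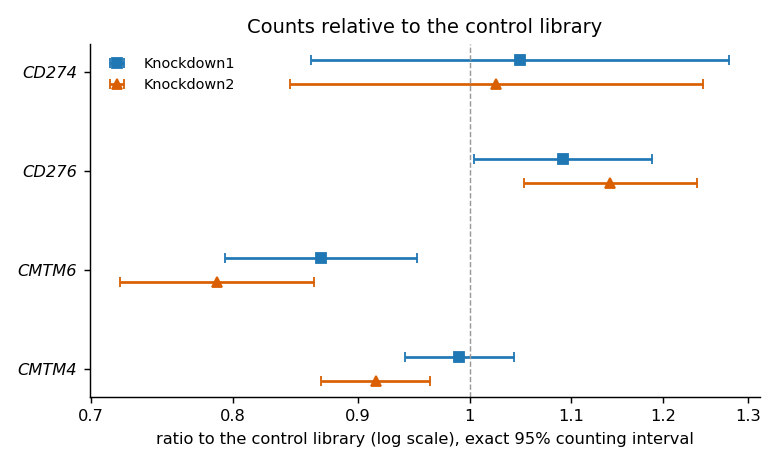
Ratio of each abundant member to the control library on a log axis, with exact 95% counting intervals as bars, 1 symbol for each library labelled as a knockdown. CMTM6 lies left of 1 and CD276 right of 1 in both libraries, and both CD274 intervals span 1.

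The fit over the libraries called none of the members. With edgeR and an adjusted p under 0.05, 0 of the 5 tested members were called, against 0.353% of the 19849 genes. At an unadjusted p under 0.05 CMTM6 alone passed, 1 of 5 against 11.7% of the genes, and DESeq2 gave 0 members at either threshold. The log2 fold change of CMTM6 was -0.27 ± 0.14 (SE, edgeR adjusted p = 0.417), with a 95% interval as a fold of 0.689 to 0.997. CD276 had 0.16 ± 0.13 (SE, edgeR adjusted p = 0.668; fold 0.932 to 1.34), and CMTM4 had -0.07 ± 0.12 (SE, edgeR adjusted p = 0.862; fold 0.813 to 1.12). The control has 1 library, so the spread in this test came from the 2 libraries labelled as knockdowns, which may carry different hairpins.

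The ratio of 2 genes within a library does not depend on how libraries are scaled. Per length, CMTM6 was 4.71 times as abundant as CD274 in the control (95% counting interval 4.05 to 5.50), 3.91 times in Knockdown1 (3.36 to 4.56) and 3.62 times in Knockdown2 (3.13 to 4.22). Relative to the control the ratio was 0.829 (0.667 to 1.03) and 0.769 (0.620 to 0.954), which left out 1 in the library labelled Knockdown2. CMTM4 was 7.40, 6.99 and 6.61 times as abundant as CD274, and neither library differed from the control beyond counting error, at 0.944 (0.770 to 1.16) and 0.893 (0.730 to 1.09). CMTM6 against CMTM4 stood at 0.878 (0.791 to 0.974) and 0.861 (0.775 to 0.956) of the control ratio. CMTM6 against CD276 showed the widest gap of these pairs, at 0.796 (0.703 to 0.901) and 0.691 (0.611 to 0.781) of the control ratio. CD276 against CD274 stood at 1.04 (0.840 to 1.29) and 1.11 (0.901 to 1.38), within counting error.

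The GC content of the transcripts moved with these ratios over the whole table. For 10859 genes averaging 100 counts or more, placed in 20 classes by the GC content of the longest transcript, the mean log2 ratio to the control rose from -0.14 in the class with a median GC of 35.5% to 0.18 in the class at 65.5% in the library labelled Knockdown1. In the library labelled Knockdown2 it rose from -0.26 to 0.33. CMTM6 has 39.4% GC, CD274 40.9%, CMTM4 45.4% and CD276 61.0%, so CMTM6 and CD276 lie towards opposite ends of this range.

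Set beside genes of like GC content, CD276 and CMTM4 lay nearest to the means of their classes and CD274 furthest from them. The log2 ratio of CMTM6 was -0.20 in the library labelled Knockdown1 and -0.34 in the library labelled Knockdown2, where its class averaged -0.12 and -0.22. That of CD276 was 0.13 and 0.19, where its class averaged 0.14 and 0.25. CD274, at 0.07 and 0.04, lay above its class means of -0.08 and -0.16, by 0.15 and 0.20 where the class SDs were 0.18 and 0.22. CMTM4, at -0.01 and -0.13, lay close to class means of -0.01 and -0.07. Each of the 4 genes was within 1 SD of its class, the SDs being 0.17 to 0.22. With the trends of GC content and length removed from each library, the edgeR log2 fold change of CMTM6 was -0.11 ± 0.11 (SE, adjusted p = 0.898), that of CD276 turned to -0.03 ± 0.10 (adjusted p = 0.973) and that of CD274 was 0.17 ± 0.18 (adjusted p = 0.907).

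**Figure D3:**
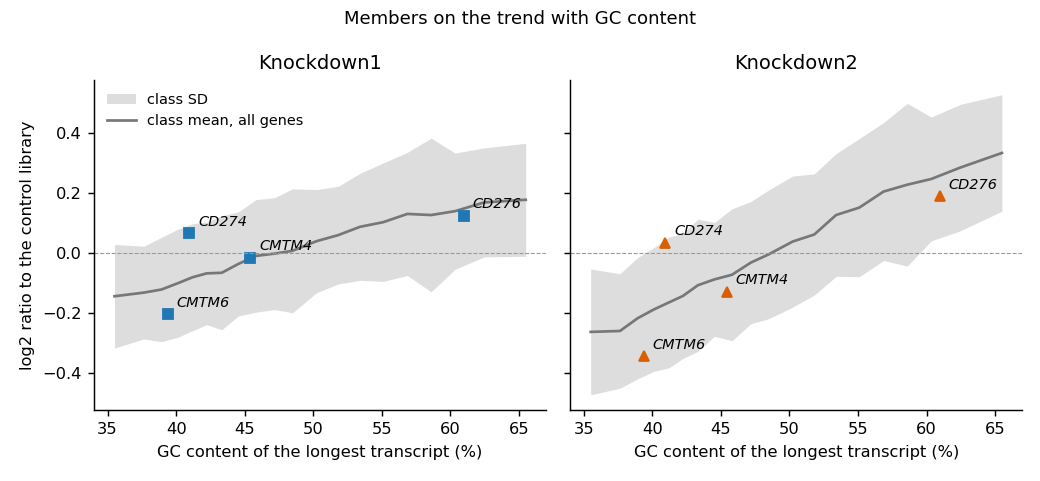
Log2 ratio to the control library against the GC content of the longest transcript, in 1 panel for each library labelled as a knockdown. The line joins the means of 20 classes of genes, the shaded band is 1 SD of the genes in a class, and the symbols are CD274, CD276, CMTM6 and CMTM4, all of them inside the band.

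The promoters of CD274 and CD276 differ in sequence content from those of CD80, CD86, VTCN1 and HHLA2, the ligands near 0 whose promoter was given. The promoters of 4 members are shown because they set CD274, CD276 and CMTM6, which had RNA, beside CD86, which had none. The sequences are RefSeq's, of the build GRCh38.p14, from 250 bases before a gene's first listed start to 50 bases after it, 5′ to 3′ on the strand of the gene, and they were found for 8 of the 9 members, all but PDCD1LG2. Capitals mark matches to the core of an interferon-stimulated response element, which is TTTC, any 2 bases and TTTC again, or GAAA, any 2 bases and GAAA on the other strand, and to the GC box that Sp1 binds, GGGCGG or CCGCCC on the other strand. Neighbouring matches can overlap and then print as 1 run of capitals. The windows are chr9:5450292-5450591 on the plus strand for CD274, chr15:73684133-73684432 on the plus strand for CD276, chr3:32502803-32503102 on the minus strand for CMTM6 and chr3:122055112-122055411 on the plus strand for CD86.
CD274: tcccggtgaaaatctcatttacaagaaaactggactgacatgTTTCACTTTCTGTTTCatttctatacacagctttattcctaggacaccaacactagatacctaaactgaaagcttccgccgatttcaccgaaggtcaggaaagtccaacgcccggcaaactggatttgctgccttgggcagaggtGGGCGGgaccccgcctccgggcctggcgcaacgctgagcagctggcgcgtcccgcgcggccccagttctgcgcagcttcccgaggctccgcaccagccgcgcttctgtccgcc
CD276: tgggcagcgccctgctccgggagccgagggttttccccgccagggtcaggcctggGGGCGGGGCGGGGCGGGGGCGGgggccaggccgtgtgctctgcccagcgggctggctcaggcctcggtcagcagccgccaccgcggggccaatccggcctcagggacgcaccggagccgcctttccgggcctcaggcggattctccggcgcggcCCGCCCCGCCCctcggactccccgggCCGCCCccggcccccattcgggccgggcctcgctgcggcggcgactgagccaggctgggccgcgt
CMTM6: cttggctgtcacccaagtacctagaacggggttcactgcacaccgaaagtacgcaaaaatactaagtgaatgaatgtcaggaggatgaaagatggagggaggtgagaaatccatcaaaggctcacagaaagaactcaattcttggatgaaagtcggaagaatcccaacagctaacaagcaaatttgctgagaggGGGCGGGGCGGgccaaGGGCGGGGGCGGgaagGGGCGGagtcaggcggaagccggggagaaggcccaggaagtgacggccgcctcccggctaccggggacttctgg
CD86: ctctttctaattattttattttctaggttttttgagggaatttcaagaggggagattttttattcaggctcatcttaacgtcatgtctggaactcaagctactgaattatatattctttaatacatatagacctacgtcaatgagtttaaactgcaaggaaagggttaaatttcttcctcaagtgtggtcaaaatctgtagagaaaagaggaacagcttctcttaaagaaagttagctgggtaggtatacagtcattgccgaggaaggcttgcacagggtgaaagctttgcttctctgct

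In the CD274 window, 2 overlapping interferon elements, TTTCACTTTC and TTTCTGTTTC, begin 208 and 202 bases before the start, and 1 GC box begins 63 bases before it. The interferon element occurs in 3.57% of 35116 promoters of this length, in 2.72% of the 12683 whose gene had at least 1 FPKM in every library and in 4.07% of the 4471 whose gene was at 0. Its share was thus no higher among promoters of expressed genes than among all promoters. Of the other members HHLA2 alone matched it, at the second of its listed starts, with TTTCAGTTTC. The CD276 window holds 7 GC boxes, the CMTM6 window 5 and the CMTM4 window 4, while those of VTCN1, CD80, CD86 and HHLA2 hold 0. The GC box occurs in 45.0% of all promoters, in 68.1% of those of genes with at least 1 FPKM and in 23.4% of those of genes at 0.

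The frequency of CpG, observed to expected, separated the same genes. At the first listed start it was 0.910 for CD274, 0.764 for CD276, 0.670 for CMTM6 and 0.904 for CMTM4. There it was 0.324 for CD80, 0.299 for CD86, 0.272 for VTCN1 and 0.156 for HHLA2. At later listed starts it was 0.648 for CD276, 0.205 for CD86, and 0.373 and 0 for HHLA2. The 2 sets did not overlap, and the medians over all promoters were 0.830 for genes with at least 1 FPKM and 0.268 for genes at 0, which lie in the same order. A match of letters is a description of these windows and does not show that a factor binds there.

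**Figure D4:**
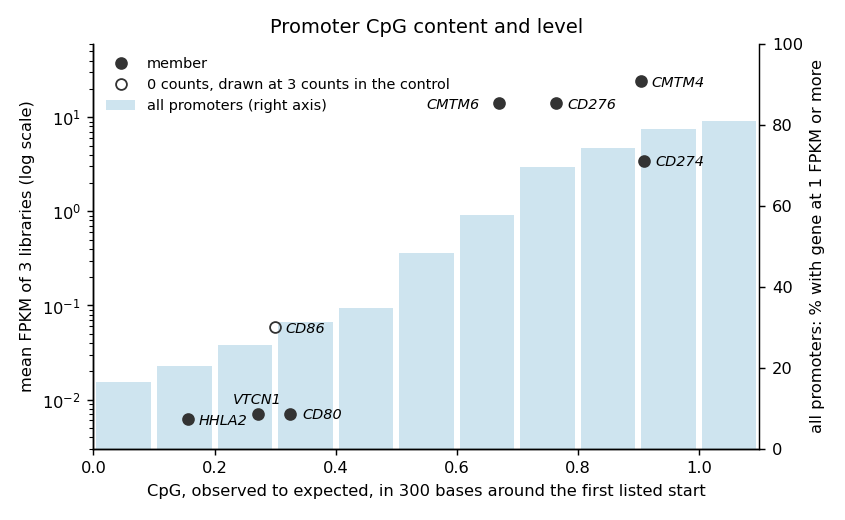
CpG observed to expected in the first listed promoter window of 8 members against their mean FPKM over the 3 libraries on a log axis (left). Bars give the percent of all promoters in a CpG class whose gene had a mean of at least 1 FPKM over the 3 libraries (right axis). CD86, with 0 counts, is drawn open at 3 counts. CD274, CD276, CMTM6 and CMTM4 lie at 0.670 or more, and the 4 ligands near 0 lie at 0.324 or less.

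The wider B7 and butyrophilin family was represented by 15 further genes, of which 10 could be tested and 0 were called by edgeR, with 0 at an unadjusted p under 0.05 and a median log2 fold change of 0.04, beside 0.00 over all genes tested. VSIR, which encodes the checkpoint ligand VISTA, had 1058, 1012 and 1395 counts, or 13.9, 13.4 and 17.2 FPKM. Per length it did not differ from CD276 beyond counting error in the control, at 1.07 times (95% counting interval 0.980 to 1.16), or in Knockdown1, at 0.940 times (0.863 to 1.02). In the library labelled Knockdown2 it stood above CD276, at 1.15 times (1.07 to 1.24). Without division by length the ratios were 0.988 (0.907 to 1.08), 0.869 (0.798 to 0.947) and 1.07 (0.988 to 1.15). The order of VSIR and CD276 thus depends on the length used. BTN3A2, a butyrophilin that takes part in the sensing of phosphoantigens by gamma delta T cells, had 502, 544 and 537 counts, or 4.80, 5.23 and 4.83 FPKM, and so lay between CD276 and CD274.

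The CMTM family held 7 further genes, 6 of them tested and 0 called, with a median log2 fold change of -0.02. CMTM3, the most counted of them, had 504, 489 and 504 counts, or 10.7, 10.5 and 10.1 FPKM, next under CMTM6 in each library. CMTM7, on the strand opposite CMTM6, is given above. CMTM2 had 0 counts in the control library and 6 in each of the others. It was the 1 gene of the 6 tested at an unadjusted p under 0.05 (edgeR adjusted p = 0.335), against 11.7% of all genes tested. CMTM2 was named after its values were seen.

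**Figure D5:**
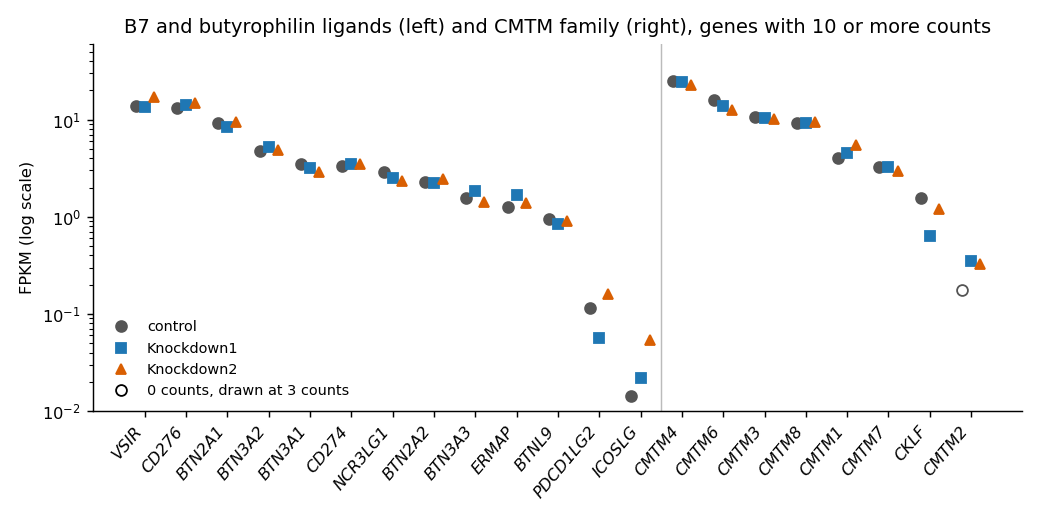
FPKM on a log axis of the B7 and butyrophilin ligands (left) and the CMTM family (right) with at least 10 counts over the 3 libraries, sorted by the control library, 1 symbol per library. CMTM4 and CMTM6 head their family, VSIR lies beside CD276, and CD274 lies among the butyrophilins near 3 FPKM.

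Receptors of the B7 ligands were nearly absent. Of 7 genes, CTLA4, CD28, ICOS, TMIGD2 and NCR3 were at 0 in every library, and PDCD1, the receptor of PD-L1 and PD-L2, had 1, 3 and 2 counts. RGMB, a coreceptor of bone morphogenetic proteins that also binds PD-L2, was the 1 gene tested, with 221, 192 and 239 counts (edgeR adjusted p = 0.912).

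Enzymes and sorting factors that act on the PD-L1 protein were all expressed. Of 13 genes, 13 were tested, 0 were called and the median log2 fold change was 0.00. USP22, a deubiquitinase, had 6805, 6859 and 7130 counts, and STT3A, the catalytic subunit of the complex that attaches N-linked glycans, had 3078, 3088 and 3243. At an unadjusted p under 0.05 were 2 of the 13 genes, against 11.7% of all genes tested. Both were named after their values were seen. The ubiquitin ligase STUB1 had 528, 584 and 807 counts, its log2 fold change being 0.35 ± 0.15 (SE, edgeR adjusted p = 0.353). For the deubiquitinase OTUB1, with 1243, 1436 and 1657 counts, that value was 0.27 ± 0.13 (SE, edgeR adjusted p = 0.391). STUB1 has 65.0% GC and OTUB1 60.9%, a range where the class means lay above the control in both libraries labelled as knockdowns. Their values with the GC trend removed are not given here.

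The 12 genes of the signalling that reaches the CD274 promoter were likewise all tested and 0 were called, with a median log2 fold change of 0.00. HIF1A, the oxygen-responsive factor that can bind the CD274 promoter, had 9565, 8223 and 8465 counts, its log2 fold change being -0.24 ± 0.11 (SE, edgeR adjusted p = 0.349). STAT3 had 6428, 6477 and 7555 counts. HIF1A and RELA, the NF-kappa-B subunit, were the 2 of the 12 at an unadjusted p under 0.05, against 11.7% of all genes tested. RELA had 1787, 2081 and 2308 counts (edgeR adjusted p = 0.403) and was named after its values were seen. HIF1A has 36.4% GC and RELA 57.1%, and their values with the GC trend removed are not given here.

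Of 9 genes beside CD274 on chromosome 9, 6 were tested and 0 were called, with 0 at an unadjusted p under 0.05 in edgeR. The log2 fold changes of the tested genes ran from -0.65 to -0.01 (median -0.15). The lowest was that of RLN2, with 13, 8 and 9 counts and an SE of 0.82. The tested genes have 39.2% to 44.5% GC, a range where the class means lay below the control in both libraries labelled as knockdowns. ERMP1, an endoplasmic reticulum metallopeptidase, had 1269, 1283 and 1249 counts and RIC1, part of a membrane trafficking complex, had 738, 693 and 822. JAK2, the kinase of the interferon gamma receptor, belongs to this list and to the list of promoter signalling, and had 242, 184 and 217 counts.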

How the data were processed

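Poly(A) RNA of 3 DU145 libraries (1 control, 2 labelled PD-L1 knockdown) was sequenced and counted by a service company. The authors deposited raw read counts per gene and FPKM. The deposited FPKM equal the count divided by listed length and 1 constant per library. Per the labels, Bowtie2 2.0.6, TopHat2 2.0.9, Cufflinks 2.1.1 and Cuffdiff 2.1.1 were used, in roles not given. Multiple mapping and strand use are not given in the sources used here. Positions are GRCh38.

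Genes with at least 10 counts over the libraries (19849) were fitted with edgeR 4.0.16 in R 4.3.3 (TMM, glmQLFit, glmQLFTest), both knockdown libraries against the control, with Benjamini-Hochberg adjustment. With 1 residual degree of freedom per gene, the spread was shared over genes (common dispersion 0.00719). Ratios of 2 libraries carry exact 95% intervals on TMM sizes. Intervals and the limit of 3 counts cover counting error only, since reads copied by PCR carry no molecular identifiers. Nothing says that the libraries are independent cultures, so p-values measure the spread between these libraries, which may be technical. Levels are compared per listed length.

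Alternatives were DESeq2 1.42.0 (Wald test), DESeq2 size factors, library totals, a 1-count filter, removal of the trends with GC content and length (means of 20 classes), leaving out a library, and counts without division by length. Members and lists were chosen with earlier results of these data known. All members are named, and of each list the genes called and the 2 with the highest mean count. The study's other assays were not analysed here. Some genes of the marker lists are not reported here.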

Additional observations from a re-analysis of the deposited data

How the results depend on the processing

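No member was called at an adjusted p under 0.05 with edgeR on TMM, on DESeq2 size factors, on library totals, with a 1-count filter or with the GC and length trends removed, or with the DESeq2 Wald test. At an unadjusted p under 0.05, CMTM6 passed in the first 3 of these and 0 members passed in the others. Over all genes the calls fell from 70 to 6 with DESeq2 and to 6 with the trends removed. With the trends removed, the log2 fold changes of CD276 and PDCD1LG2 changed sign, to -0.029 and 0.020. The trends with length and with GC content were removed together, so their parts cannot be told apart here. Leaving out 1 knockdown library at a time gave log2 values with no test of 0.04 to 0.07 for CD274, 0.13 to 0.19 for CD276, -0.34 to -0.20 for CMTM6, -0.12 to -0.01 for CMTM4 and -0.58 to 0.35 for PDCD1LG2, whose few counts leave its direction to 1 library: -0.58 without Knockdown2 and 0.35 without Knockdown1. With library totals, 1 member instead of 2 had an interval that left out 1 in the library labelled Knockdown1, since the interval of CD276 then took in 1. Without division by length, the CD276 share of ligand counts was 83.6%, 84.4% and 85.0% (control, Knockdown1, Knockdown2), and CMTM4 exceeded CD274 by 14.6, 13.8 and 13.1 times, the listed length of CMTM4 being 8117 bases and that of CD274 4108. No paired analysis was possible because the control has 1 library. Ligands with under 10 counts were beyond the reach of any test at this depth.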
